A study of Mus musculus with 6 samples.

Results

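The genes described here encode the voltage-gated ion channels of the mouse: the pore-forming subunits of voltage-gated potassium channels (Kcna, Kcnb, Kcnc, Kcnd, Kcnf, Kcng, Kcnh, Kcnq, Kcns and Kcnv), the alpha and beta subunits of voltage-gated sodium channels (Scn), the alpha1 subunits of voltage-gated calcium channels (Cacna1) and the hyperpolarization-activated HCN channels. They were picked by gene symbol alone, from the probe sets annotated with exactly 1 symbol, and 60 of 22180 genes on the array met the rule. These 60 genes were read by 63 probe sets, and for each gene the probe set with the highest mean signal over all arrays was used. RNA came from the hippocampus of male mice at postnatal day 21, of which 3 were quadruple knockout animals (Tnc -/-, Tnr -/-, Bcan -/-, Ncan -/-) and 3 were wildtype, all biological replicates. The quadruple knockout lacks the matrix glycoproteins tenascin-C and tenascin-R and the proteoglycans brevican and neurocan, constitutively and therefore in every cell of the animal. The study kept SV129 mice and described the animals of the array experiment as siblings and their samples as dependent. Each sample was hybridised to an Affymetrix Mouse Gene 2.0 ST array, which reads a transcript with probes along its length. Signals are given on the log2 scale after Robust Multichip Average (RMA) normalization, so a difference of 1 is a doubling, and signals of different genes come from different probes, so that levels are not compared between genes here.

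Voltage-gated channels open and close with the membrane potential and thereby shape the electrical activity of a neuron. Sodium channels at the axon initial segment and the nodes of Ranvier carry the upstroke of the action potential, potassium channels repolarise the membrane and set the firing rate, calcium channels couple depolarisation to transmitter release and gene expression, and HCN channels carry a pacemaker current in dendrites and rhythmically firing cells. Fast-spiking interneurons of the hippocampus, many of which carry a perineuronal net, rely on Kv3 potassium channels and on the sodium channel encoded by Scn1a.

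As a check of the genotypes, Bcan ran from 5.72 to 5.85 in knockout arrays but from 10.36 to 10.68 in wildtype arrays, and Ncan from 6.35 to 6.81 against 11.73 to 11.82. Tnc read 7.96 ± 0.18 against 8.11 ± 0.28 and Tnr 11.62 ± 0.05 against 11.71 ± 0.08 (SD, n = 3 each), so that the array signal of these targeted genes was close in both genotypes. A signal of 6.03, the 95th percentile of the mean signals of 1108 olfactory receptor probe sets, served as the background level. Median signals per array were 6.30 to 6.33 for the knockout, slightly below the wildtype with 6.34 to 6.39. Fibcd1, a marker of CA1 pyramidal cells, read 8.17, 7.99 and 9.64 in knockout replicates 1, 2 and 3 and 8.11, 8.57 and 8.18 in the wildtype, so that knockout replicate 3 stood apart from the other arrays in this gene. It was picked from 12 pyramidal and granule cell markers after the values were seen. Of the others, Grik4, Cpne4 and Neurod6 were also highest in knockout replicate 3. Wfs1 and Pou3f1 were highest in wildtype replicate 2, at 10.51 and 7.45, and the rest in wildtype replicate 1 or 3.

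Most voltage-gated channel genes were expressed in the hippocampus at similar levels in both genotypes. The mean signal exceeded the background in 50 of 60 genes, and the 10 that did not were Kcna7, Kcna10, Kcnh6, Kcnq1, Kcnv2, Scn10a, Scn11a, Cacna1f, Cacna1s and Hcn4, several of which are known from muscle, heart, retina or sensory neurons. The median difference of the 60 genes, given throughout as quadruple knockout minus wildtype, was 0.05 on the log2 scale, against 0.01 over all genes. The differences ran from -0.48 for Kcna5 to 0.62 for Scn7a, with 39 genes above 0 (65%) and 21 below, where 52.9% of all genes lay above 0. Among genes above background 72% of the channel genes lay above 0, against 60.3%. Array medians were lower in the knockout, and after each array was centred on its median 48 of 60 lay above 0. The same centring moved the median of all probe sets from -0.01 to 0.05. The share of all genes above 0 after centring is not given, so the 48 genes have no like baseline here.

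None of the 60 genes passed an adjusted p of 0.05 (limma, Benjamini-Hochberg over all 34472 probe sets), where 14 of 22180 genes did so on the whole array (0.0631%). The lowest adjusted p, 0.0625, belonged to Scn7a. At an unadjusted limma p under 0.05, 5 channel genes read higher in the knockout (8.33%), where 4.28% of all genes did. Among genes above background it was 10% of the channel genes, against 5.3%. A single channel gene, Kcna5, read lower (1.67%), where 4.04% of all genes did. Among genes above background it was 2% of the channel genes, against 2.81%. The count of higher genes was not firm, since it was 3 without knockout replicate 1, 9 without knockout replicate 2, 3 without knockout replicate 3, 2 without wildtype replicate 1 and 3 without wildtype replicate 3. Over 1.5-fold with an unadjusted p under 0.05, the form of threshold used in the study, was reached by 1 of 60 genes, again Scn7a, and by 0.252% of all genes.

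All 3 knockout arrays lay above all 3 wildtype arrays in 8 channel genes, namely Scn7a, Kcnf1, Kcna3, Scn1a, Cacna1i, Kcnb2, Cacna1g and Cacna1c. This was 13.3% of the channel genes, against 9.73% of all genes. Among genes above background it was 16% of the channel genes, against 12.9%. All knockout arrays lay below all wildtype arrays in 2, Kcna5 and Scn3b (3.33%, against 6.39% of all genes). Among genes above background it was 4% of the channel genes, against 4.99%. The first count moved to 13 without knockout replicate 3 and to 19 without knockout replicate 2, and the second to 6 without knockout replicate 2, to 4 without knockout replicate 1 or wildtype replicate 1 and to 3 without knockout replicate 3. Leaving out an array cannot undo a separation, so in any set of genes these counts can only stay or rise. The shares over all genes with an array left out are not given here, so the rise is not read as a trait of channel genes. With 3 arrays against 3, such a separation has a two-sided exact permutation p of 0.1, the smallest the design allows.

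**Figure D1:**
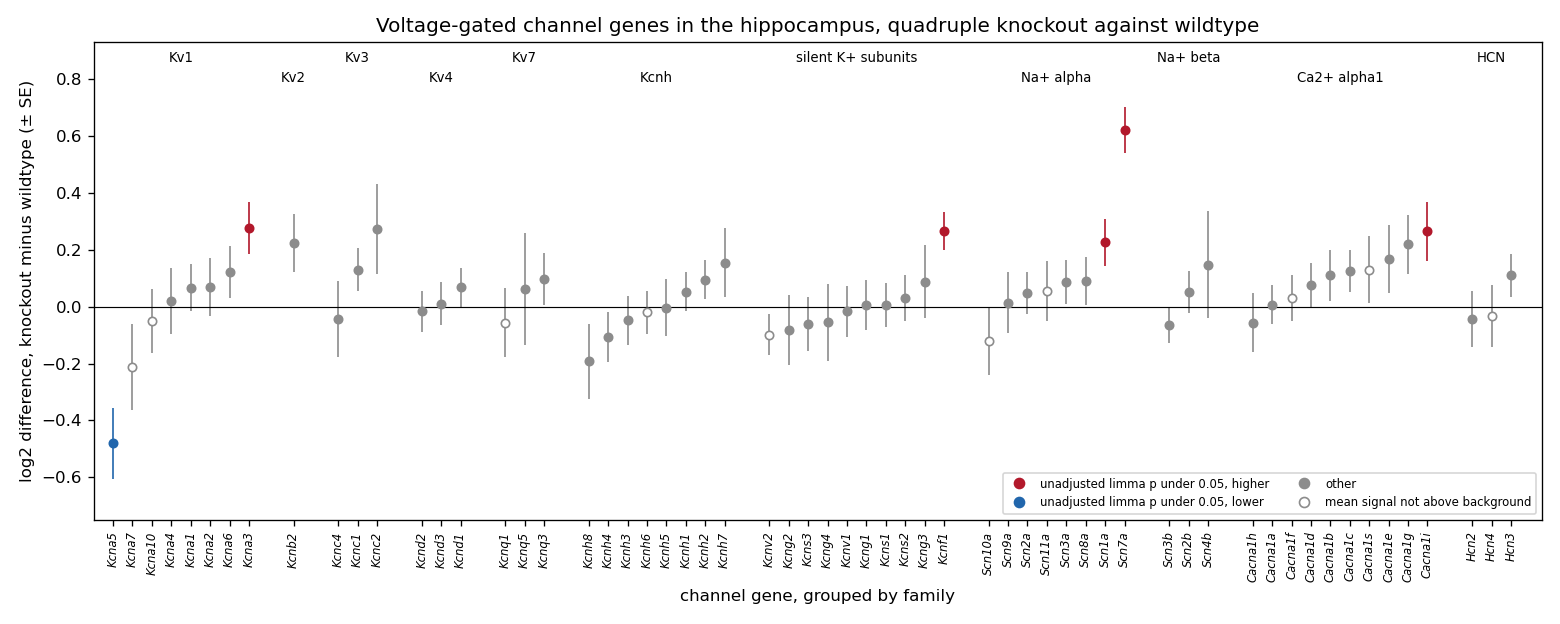
Log2 difference, quadruple knockout minus wildtype, with its standard error for each of the 60 voltage-gated channel genes, grouped by family. Scn7a at 0.62 and Kcna5 at -0.48 lie farthest from 0.

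Sodium channels comprised 8 alpha and 3 beta subunit genes. The median difference of the alpha subunits was 0.07, with 7 of 8 above 0, 2 higher at an unadjusted p under 0.05 and none lower. Of all genes 52.9% lay above 0, and of genes above background 60.3%. The alpha subunit median was 0.04 without knockout replicate 1, 0.12 without knockout replicate 2 and 0.05 without wildtype replicate 1. Without knockout replicate 1 or 3 or wildtype replicate 2 or 3, 6 of 8 alpha subunits lay above 0. Scn7a encodes Nax, an atypical member that responds to extracellular sodium rather than to voltage and is known from glia of the circumventricular organs and from peripheral tissue. It read 6.85, 6.76 and 6.97 in knockout replicates 1, 2 and 3 and 6.19, 6.23 and 6.30 in the wildtype. The groups did not overlap, and the gap of 0.45 between them exceeded the spread within each. The mean was 6.86 ± 0.11 against 6.24 ± 0.06 (SD, n = 3 each), a difference of 0.62 (SE 0.08) or 1.54-fold, with an unadjusted p of 9.61e-05 and an adjusted p of 0.0625 (limma). The signal was low, above the background in all 6 arrays by less than 1 log2 unit. The adjusted p was below 0.05 under 4 of 14 alternative settings and ranged from 0.0193 to 0.328 over all of them, with differences of 0.57 to 0.68. Astrocyte markers, read beside it because of its glial expression elsewhere, differed at an unadjusted p under 0.05 in 0 of 8 genes, and their summed linear signal ran from 16643 to 17039 in the knockout and from 15822 to 17148 in the wildtype. None of these 8 genes was at background.

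Scn1a, which encodes Nav1.1, the sodium channel of fast-spiking interneurons, read 8.49, 8.43 and 8.60 in the knockout against 8.28, 8.38 and 8.18 in the wildtype. The lowest knockout array lay 0.05 above the highest wildtype array. The difference was 0.23 (SE 0.08, unadjusted p = 0.0302, adjusted p = 0.527, limma), and the unadjusted p stayed below 0.05 under 8 of 14 alternatives. The main alpha subunits of excitatory neurons had differences closer to 0, with 0.05 for Scn2a (Nav1.2, adjusted p = 0.868, limma) and 0.09 for Scn8a (Nav1.6), the channel of the distal initial segment and of nodes (adjusted p = 0.763, limma). Scn8a read 10.79, 10.59 and 10.76 against 10.53, 10.68 and 10.65, so that its groups overlapped. Scn3a, an alpha subunit of the developing brain, differed by 0.09, and Scn9a, Scn10a and Scn11a, the channels of peripheral sensory neurons, by 0.01, -0.12 and 0.06, the last 2 below the background level.

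Among the beta subunits, cell adhesion proteins that modulate the alpha subunits and their placement, Scn3b read 12.69, 12.74 and 12.69 in the knockout and 12.77, 12.75 and 12.78 in the wildtype. Its arrays did not overlap, but the difference of -0.07 (SE 0.06) had an adjusted p of 0.774 (limma). Scn2b differed by 0.05 (adjusted p = 0.859, limma). Scn4b, which takes part in resurgent sodium current in other neurons and was picked for its spread after the values were seen, ran from 6.73 to 7.33 in the knockout and from 6.65 to 7.19 in the wildtype, and knockout replicate 3 was the highest array.

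The 36 potassium channel genes had a median difference of 0.01, and an unadjusted p under 0.05 was found for 2 on the higher and 1 on the lower side. The Kv1 family of 8 genes held both a higher and a lower member. Kcna3 encodes Kv1.3, known from T lymphocytes and microglia and present in some neurons. It read 9.37, 9.36 and 9.39 in the knockout, a range of 0.03, and 8.94, 9.10 and 9.25 in the wildtype. The knockout arrays lay above the wildtype arrays, whose spread was the larger. The difference was 0.28 (SE 0.09, unadjusted p = 0.0187, adjusted p = 0.501, limma). Microglia markers showed 0 of 7 genes at an unadjusted p under 0.05, all 7 above background, with summed linear signals of 2572 to 2775 in the knockout and 2440 to 3022 in the wildtype.

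Kcna5 encodes Kv1.5, a channel known from cardiac atria and vascular smooth muscle. It read 6.30, 6.10 and 5.82 in the knockout and 6.65, 6.50 and 6.52 in the wildtype. All knockout arrays lay below all wildtype arrays, and knockout replicate 3 lay below the background level. The mean was 6.07 ± 0.24 against 6.56 ± 0.08 (SD, n = 3 each), a difference of -0.48 (SE 0.13), or 0.717 of the wildtype on the linear scale, with an unadjusted p of 0.00581 and an adjusted p of 0.450 (limma). Among 8 vascular markers, unadjusted p values under 0.05 were found for 1 higher gene, Kdr, and 1 lower gene, Slc2a1. They differed by 0.42 and -0.38 (unadjusted p = 0.00979 and 0.00185, adjusted p = 0.484 and 0.362, limma). All knockout arrays lay below the wildtype in Slc2a1 and above it in Kdr. The summed linear signal of the 8 markers, to which Slc2a1 and Rgs5 add most, was 5067 to 5891 in the knockout. It overlapped that of 5662 to 6400 in the wildtype. In bulk tissue, fewer cells of a type and less RNA per cell cannot be told apart. The part of vascular cells in the Kcna5 reading was not tested.

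The Kv1 subunits of axons and nerve terminals did not stand out. Kcna1 (Kv1.1) differed by 0.07 (adjusted p = 0.825), Kcna2 (Kv1.2) by 0.07 (adjusted p = 0.858) and Kcna4 (Kv1.4) by 0.02 (adjusted p = 0.972, limma for each). Kcna1 read 11.27, 11.08 and 11.28 in the knockout and 11.08, 11.18 and 11.17 in the wildtype, which overlapped. For Kcna6 (Kv1.6) the probe set used differed by 0.12 and its other, dimmer probe set by -0.15 (unadjusted p = 0.225 and 0.181, limma), so that the direction is not settled. Kcna7 and Kcna10, both not above background, differed by -0.21 and -0.05.

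**Figure D2:**
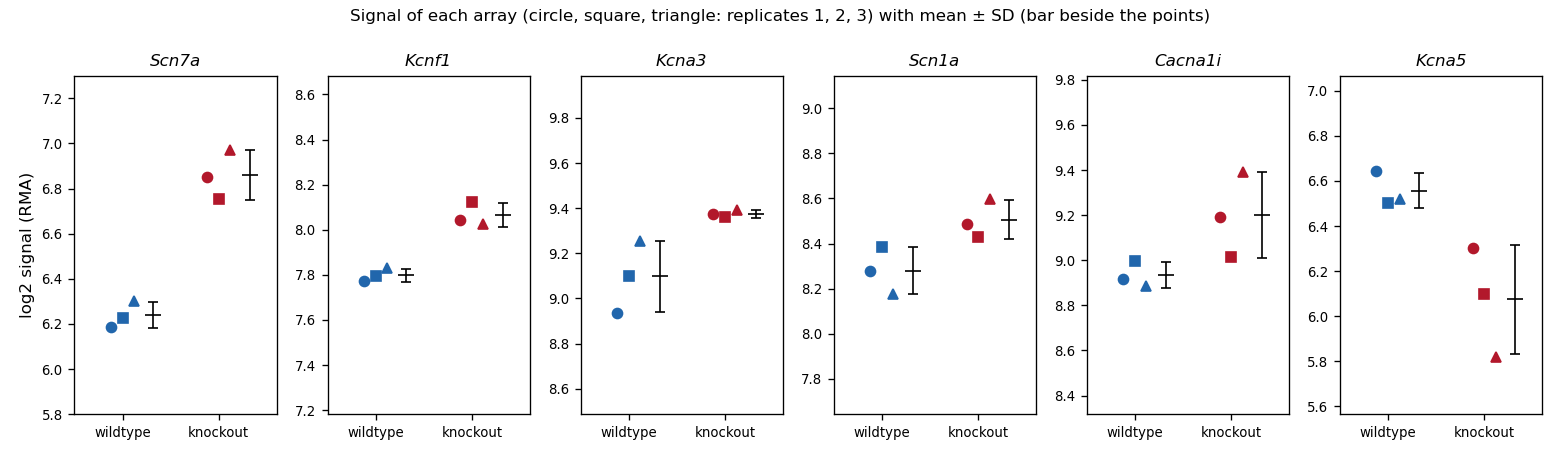
Log2 signal of each of the 6 arrays for the 6 channel genes with an unadjusted limma p under 0.05, with mean ± SD of 3 arrays. The groups do not overlap in any of these genes, and Kcna5 is the one in which the knockout lies below the wildtype.

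Kcnb2, the measured Kv2 gene, encodes Kv2.2, a delayed rectifier. It read 9.27, 9.01 and 9.06 in the knockout and 8.74, 8.96 and 8.97 in the wildtype, without overlap, with a difference of 0.22 (unadjusted p = 0.0633, adjusted p = 0.572, limma) that was 0.14 without knockout replicate 1. Kcnf1 encodes Kv5.1, a silent subunit that forms no channel of its own and modifies Kv2 channels. It read 8.04, 8.12 and 8.03 in the knockout and 7.77, 7.80 and 7.83 in the wildtype. The gap between the groups was 0.20 and each group spanned under 0.10. The difference of 0.27 (SE 0.07) corresponded to 1.20-fold, with an unadjusted p of 0.00496 and an adjusted p of 0.446 (limma), and the unadjusted p stayed below 0.05 under each of the 14 alternatives. The other 9 silent subunits of the Kcng, Kcns and Kcnv families lay between -0.10 and 0.09, with Kcnv1, which encodes Kv8.1, at -0.02 (adjusted p = 0.971, limma).

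Kv3 channels permit firing at high rates in interneurons. Kcnc2 (Kv3.2) read 9.84, 9.57 and 10.14 in the knockout and 9.59, 9.76 and 9.38 in the wildtype. The groups overlapped, and knockout replicate 3 was the highest array. The Kcnc2 difference was 0.41 without knockout replicate 2, 0.13 without knockout replicate 3 and 0.18 without wildtype replicate 3. The difference of 0.27 (SE 0.16) over all arrays had an adjusted p of 0.640, that of Kcnc1 (Kv3.1) of 0.13 an adjusted p of 0.643 and that of Kcnc4 (Kv3.4) of -0.04 an adjusted p of 0.937 (limma).

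Kv4 channels carry the A-type current of pyramidal cell dendrites. Kcnd2 (Kv4.2) had nearly equal signals, with 12.17 ± 0.08 against 12.19 ± 0.02 for the wildtype (SD, n = 3 each), a difference of -0.02 (adjusted p = 0.959, limma), and Kcnd1 and Kcnd3 differed by 0.07 and 0.01. Kv7 channels carry the M-current, which is closed by muscarinic receptors. Kcnq3 differed by 0.10 (adjusted p = 0.761, limma). Kcnq5, picked for its spread after the values were seen, read 10.31, 9.76 and 10.56 in the knockout and 10.19, 10.27 and 9.99 in the wildtype, a spread that left its difference of 0.06 inside the standard error of 0.20. Kcnq1, known from heart and inner ear and not above background here, differed by -0.06. The 8 genes of the EAG, ERG and ELK family (Kcnh) lay between -0.19 and 0.16, with Kcnh1 (EAG1) at 0.05 (adjusted p = 0.837, limma).

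Of the 10 calcium channel alpha1 genes, 9 lay above 0, with a median difference of 0.12, 1 higher at an unadjusted p under 0.05 and none lower. Of all genes 52.9% lay above 0, and of genes above background 60.3%. The count above 0 was 8 after quantile normalization, with array weights and without knockout replicate 2 or wildtype replicate 1 or 3. The median was 0.08 without knockout replicate 1 or wildtype replicate 1. Cacna1i encodes Cav3.3, a low-threshold T-type channel. It read 9.19, 9.01 and 9.39 in the knockout and 8.92, 9.0 and 8.89 in the wildtype, so that knockout replicate 2 almost met wildtype replicate 2. The difference was 0.26 (SE 0.10, unadjusted p = 0.0380, adjusted p = 0.534, limma), and the unadjusted p stayed below 0.05 under 6 of 14 alternatives. Without knockout replicate 3 the difference was 0.17. Cacna1g (Cav3.1), another T-type channel, read 8.16, 8.26 and 8.38 against 8.13, 7.86 and 8.14, a difference of 0.22 (SE 0.10, adjusted p = 0.580, limma). Its groups did not overlap, with 0.01 between them, and the difference was 0.13 without wildtype replicate 2. Cacna1h, the remaining T-type gene, differed by -0.06 (adjusted p = 0.889, limma).

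The L-type channel gene Cacna1c (Cav1.2), which links synaptic activity to transcription, read 10.71, 10.63 and 10.57 in the knockout and 10.45, 10.53 and 10.56 in the wildtype. The groups touched without overlap and differed by 0.12 (adjusted p = 0.648, limma). The channels of transmitter release differed by 0.01 for Cacna1a (P/Q-type, adjusted p = 0.985) and by 0.11 for Cacna1b (N-type, adjusted p = 0.724), and the R-type gene Cacna1e by 0.17 (adjusted p = 0.693, limma for each). The remaining alpha1 genes Cacna1d, Cacna1f and Cacna1s, L-type channels of which Cacna1f and Cacna1s were not above background, differed by 0.08, 0.03 and 0.13. Among the HCN channels, Hcn2 differed by -0.04 (adjusted p = 0.910) and Hcn3 by 0.11 (adjusted p = 0.687, limma for both), and Hcn4, not above background, by -0.03.

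**Figure D3:**
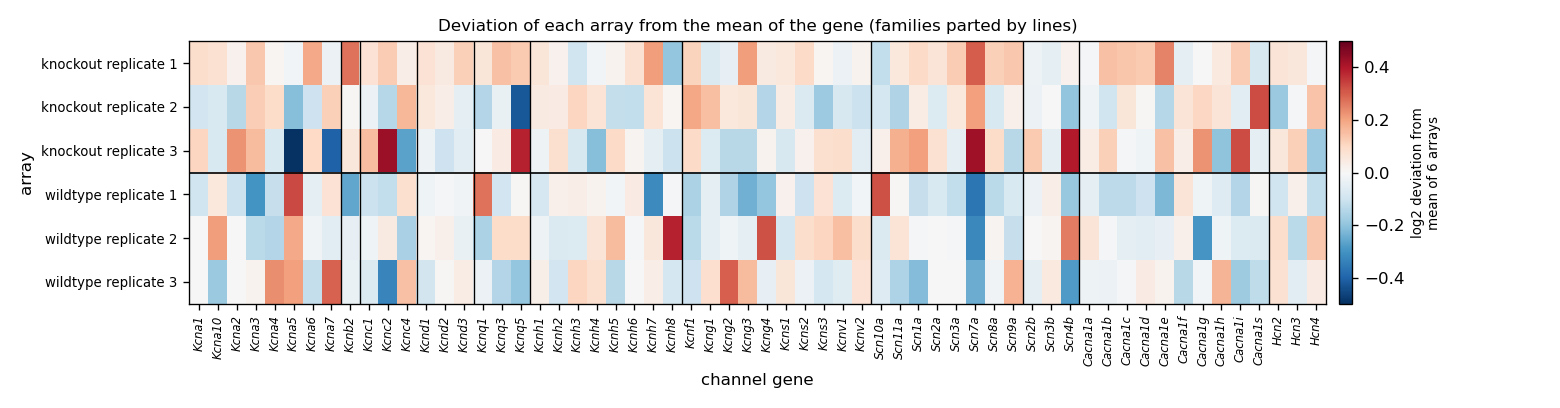
Deviation of each array from the mean of the 6 arrays (log2) for the voltage-gated channel genes, with genes as columns in family order and arrays as rows. Knockout replicates 1 and 3 hold the highest value of 17 and 16 genes, and wildtype replicates 1 and 3 the lowest value of 20 and 14.

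The arrays of a genotype differed among themselves, as the map of deviations shows. The highest of the 6 values of a gene fell on knockout replicate 1 in 17 of 60 genes, on replicate 3 in 16 and on replicate 2 in 5. The lowest fell on wildtype replicate 1 in 20 genes, on replicate 3 in 14 and on replicate 2 in 5. Within the knockout, replicate 2 was the lowest of the 3 arrays in 30 genes and the highest in 14. Within the wildtype, replicate 2 was the highest of the 3 arrays in 29 genes and the lowest in 15. These counts were taken over all 60 genes, whatever the direction of a gene's difference.

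Markers of interneurons were read beside the channels that these cells use. The differences of all 12 GABAergic markers lay above 0 (11 after quantile normalization and 10 without knockout replicate 3 or wildtype replicate 3), with a median of 0.19, and 5 (Gad2, Sst, Reln, Erbb4 and Htr3a) were higher at an unadjusted p under 0.05, none past the adjusted threshold (limma), and this count was 3 without knockout replicate 3. Gad2, which makes GABA, read 10.55, 10.37 and 10.52 in the knockout and 10.13, 10.20 and 10.08 in the wildtype (difference 0.34, SE 0.08, adjusted p = 0.399, limma). The summed linear signal of the 12 markers was 16248 to 17531 in the knockout and 13896 to 15688 in the wildtype and did not overlap. Pvalb, the marker of the fast-spiking class, read 7.99, 7.96 and 8.43 against 8.09, 7.93 and 7.98, with overlap and knockout replicate 3 on top (difference 0.12, adjusted p = 0.796, limma). For 12 pyramidal and granule cell markers the median was -0.02, 0 were called and the sums overlapped, at 23033 to 24887 against 24442 to 26059. Of these markers, 6 lay above 0 and 6 below. Prox1, Calb1, C1ql2, Dsp and Bcl11b differed by -0.10, -0.17, -0.15, -0.18 and -0.08, and knockout replicate 3 was their lowest array. Fibcd1, Grik4, Cpne4 and Neurod6, highest in knockout replicate 3, differed by 0.31, 0.09, 0.14 and 0.15. These genes were picked after the values were seen. The part of interneuron RNA in the readings of Scn1a, Kcnc1, Kcnc2 and Cacna1i was not tested. Markers of neighbouring regions summed to 3158 to 3493 in the knockout and 2957 to 3291 in the wildtype, with 1 of 9 higher at an unadjusted p under 0.05 (Rorb) and 4 of 9 (Tcf7l2, Lhx9, Drd1 and Rorb) in which all knockout arrays lay above all wildtype arrays. Beside the counts of both marker lists, 4.28% of all genes were higher at an unadjusted limma p under 0.05 (5.3% of genes above background). All knockout arrays lay above all wildtype arrays in 9.73% of all genes and 12.9% of genes above background. Differences lay above 0 in 52.9% of all genes and 60.3% of genes above background. The part of tissue from neighbouring regions in the channel readings was not tested.

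Promoter windows from RefSeq, 300 bases around a transcription start site in assembly GRCm38.p6, were found for 43 of the 60 channel genes, in 53 windows. Of these, 26 (49.06%) held the GC box GGGCGG on either strand, against 35.66% of all 32851 windows, 2 (3.774%) held TATAAA, against 13.62%, and 11 (20.75%) held the half-site TGACG of the cAMP response element, against 20.81%. The median G+C content was 62.67% against 52.67%. A match gives the letters in the window and no binding. The windows of the 4 channel genes with the smallest unadjusted p are printed 5′ to 3′ on the gene's strand to set the members with the clearest readings side by side, with GC boxes in capitals. Scn7a (chr2:66784861-66785160, minus strand) had 54% G+C and 1 GC box, on the opposite strand and so printed as CCGCCC. Kcnf1 (chr12:17176839-17177138, minus strand) had 53% G+C and Kcna5 (chr6:126535506-126535805, minus strand) 55%, with no match to the motifs in either. Kcna3 (chr3:107035912-107036211, plus strand) had 75% G+C and 2 GC boxes.
Scn7a: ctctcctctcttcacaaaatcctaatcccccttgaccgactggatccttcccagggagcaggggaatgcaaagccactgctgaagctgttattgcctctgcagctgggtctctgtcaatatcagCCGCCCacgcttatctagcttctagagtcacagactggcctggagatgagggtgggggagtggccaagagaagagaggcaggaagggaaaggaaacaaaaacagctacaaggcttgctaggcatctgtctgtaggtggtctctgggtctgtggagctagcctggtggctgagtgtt
Kcnf1: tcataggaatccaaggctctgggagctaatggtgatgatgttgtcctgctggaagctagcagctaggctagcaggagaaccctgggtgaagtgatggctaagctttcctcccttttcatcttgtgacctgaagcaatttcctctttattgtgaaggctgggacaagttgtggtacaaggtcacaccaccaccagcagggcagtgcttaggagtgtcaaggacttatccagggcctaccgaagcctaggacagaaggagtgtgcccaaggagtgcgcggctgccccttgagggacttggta
Kcna3: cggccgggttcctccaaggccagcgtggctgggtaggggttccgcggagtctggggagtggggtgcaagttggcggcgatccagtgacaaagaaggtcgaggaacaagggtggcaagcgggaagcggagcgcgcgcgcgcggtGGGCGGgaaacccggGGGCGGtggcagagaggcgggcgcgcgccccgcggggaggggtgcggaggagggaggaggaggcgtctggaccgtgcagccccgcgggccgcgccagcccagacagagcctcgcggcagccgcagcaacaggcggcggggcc
Kcna5: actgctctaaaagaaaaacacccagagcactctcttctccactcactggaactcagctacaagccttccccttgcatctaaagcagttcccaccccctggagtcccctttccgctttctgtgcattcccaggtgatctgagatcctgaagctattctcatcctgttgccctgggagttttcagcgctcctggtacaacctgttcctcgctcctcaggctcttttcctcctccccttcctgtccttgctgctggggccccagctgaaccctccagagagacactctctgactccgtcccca

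Channel genes lie in clusters, so the differences were read along the gene order of the same assembly. Scn7a shares a cluster on chromosome 2 with Scn2a, Scn1a and Scn9a. Between Scn2a at 0.05 and Scn7a at 0.62 the measured genes Csrnp3, Galnt3, Ttc21b, Scn1a and Scn9a read 0.12, 0.22, 0.15, 0.23 and 0.01, where Scn9a is the direct neighbour of Scn7a. On the other side the next genes, Gm1322 and Xirp2, were not above background, and the first expressed genes, B3galt1 and Stk39, read 0.08 and 0.13. The nearest gene past the adjusted threshold, Gm2004, lay 1253 measured genes away. Kcna5 lies on chromosome 6 beside Kcna1 and Kcna6, which differed by 0.07 and 0.12 against its own -0.48, and Nrip2, which passed the adjusted threshold, lay 23 measured genes away. Next to Kcna3 on chromosome 3, the gene AI504432 differed by 0.31 (unadjusted p = 0.0294, limma) and Kcna2 by 0.07. The targeted gene Bcan is on this chromosome too, with 351 measured genes between it and Kcna3 and 38 between it and Hcn3. Cacna1e lies on chromosome 1 with the targeted gene Tnr, 31 measured genes apart. Around Kcnf1 on chromosome 12 the readings went both ways. Its direct neighbours 2410004P03Rik and Pdia6 differed by -0.30 and 0.35 (unadjusted p = 0.0212 and 0.0127, limma). Beyond 2410004P03Rik, Pqlc3, not above background, differed by -0.26 (unadjusted p = 0.0177) and E2f6 by 0.39 (unadjusted p = 0.00264, limma for both), and beyond Pdia6, Atp6v1c2 differed by 0.06.

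**Figure D4:**
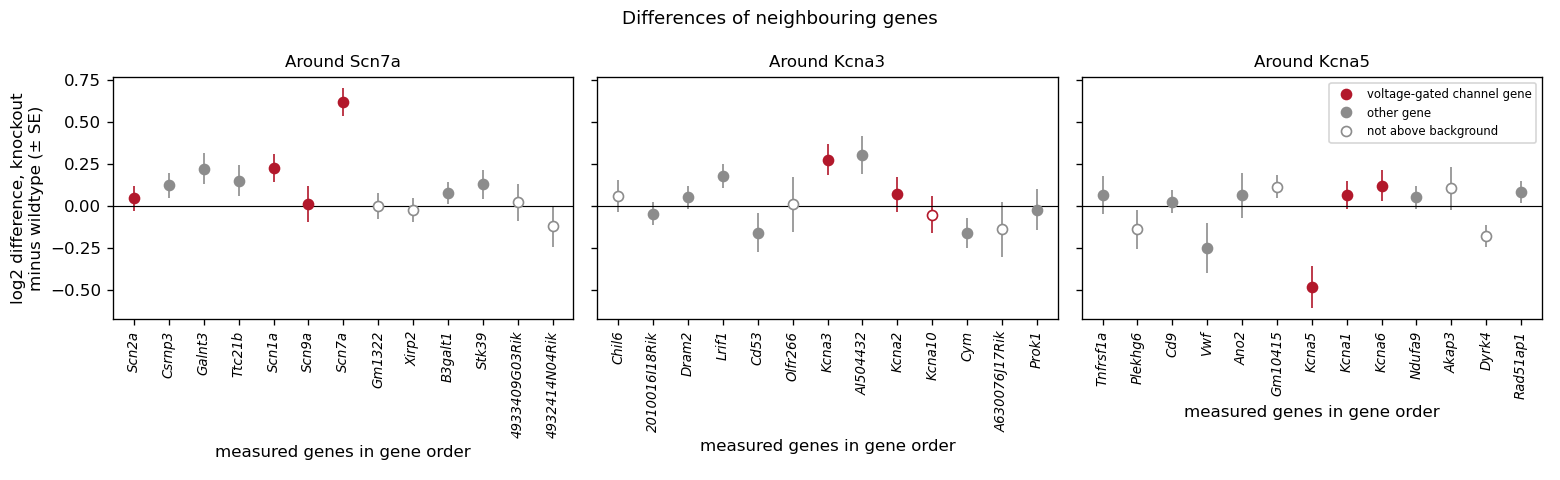
Log2 difference, quadruple knockout minus wildtype, with its standard error for the measured genes on both sides of Scn7a, Kcna3 and Kcna5 in gene order. Scn7a at 0.62 and Kcna5 at -0.48 stand apart from the channel genes next to them, while AI504432 at 0.31 reads close to Kcna3 at 0.28.

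Genes whose products bind or place these channels, and other potassium channels, were read as a comparison, with 62 of 64 listed genes measured. Their median difference was 0.04, unadjusted p values under 0.05 were found for 4 higher (6.45%) and 2 lower genes (3.23%), close to the 4.28% and 4.04% of all genes, and 0 passed the adjusted threshold (limma). The count of lower partner genes was 1 without knockout replicate 1 or 3 and without wildtype replicate 1 or 2. Dpp10, an auxiliary subunit of Kv4 channels, read 8.95, 8.44 and 9.11 in the knockout and 8.34, 8.23 and 8.27 in the wildtype, a difference of 0.55 (SE 0.16, unadjusted p = 0.0106, adjusted p = 0.486, limma), and knockout replicate 2 lay near the wildtype. The other 13 potassium channel auxiliary genes lay between -0.14 and 0.11, including Dpp6, the other measured subunit of this kind, at -0.01.

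Fgf11, a fibroblast growth factor homologous factor of the group that binds sodium channels inside the cell, read 9.35, 9.41 and 9.46 in the knockout and 9.12, 9.07 and 9.05 in the wildtype. The groups lay 0.23 apart, with a difference of 0.33 (SE 0.07, unadjusted p = 0.00179, adjusted p = 0.361, limma). The related Fgf12, Fgf13 and Fgf14 differed by 0.06, -0.02 and 0.00. Of 13 measured calcium channel auxiliary genes, Cacna2d2, an alpha2delta subunit that brings channels to the membrane, read 8.14, 8.04 and 8.33 against 7.75, 7.94 and 7.85, a difference of 0.32 (SE 0.10, unadjusted p = 0.0118, adjusted p = 0.486, limma). Cacng5, a member of the gamma subunit family whose protein also regulates AMPA receptors, read 9.23, 9.25 and 9.21 against 9.39, 9.52 and 9.70. All knockout arrays of Cacng5 lay below the wildtype, with a difference of -0.31 (SE 0.09, unadjusted p = 0.0120, adjusted p = 0.486, limma).

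Of 18 inward rectifier, two-pore and calcium-activated potassium channel genes, Kcnj16 (Kir5.1), expressed in glia, read 8.75, 8.64 and 8.82 against 8.58, 8.46 and 8.57, a difference of 0.20 (SE 0.08, unadjusted p = 0.0399, adjusted p = 0.536, limma). The unadjusted p of Kcnj16 stayed below 0.05 under 7 of 14 alternatives. Kcnj10 (Kir4.1), the partner of Kcnj16, differed by -0.05. Kcnn2 (SK2), a calcium-activated channel of the afterhyperpolarization, read 8.85, 8.93 and 8.83 against 9.11, 9.18 and 8.98, a difference of -0.22 (SE 0.08, unadjusted p = 0.0238, adjusted p = 0.511, limma), with all knockout arrays below the wildtype. For Kcnn2 the unadjusted p stayed below 0.05 under 9 of 14 alternatives. The 12 scaffold genes of the axon initial segment and node had a median of 0.09, with 11 of 12 above 0 and 0 at an unadjusted p under 0.05. Of genes above background, as all 12 were, 60.3% lay above 0. The summed linear signals of the scaffold genes overlapped, at 29634 to 32058 in the knockout and 29180 to 30317 in the wildtype. Among the scaffold genes Ank3, which encodes the ankyrin-G that anchors sodium channels, differed by 0.09 and Lgi1 by -0.05. Pex5l, whose product TRIP8b directs HCN channels to dendrites, differed by 0.21 (adjusted p = 0.576, limma).

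**Figure D5:**
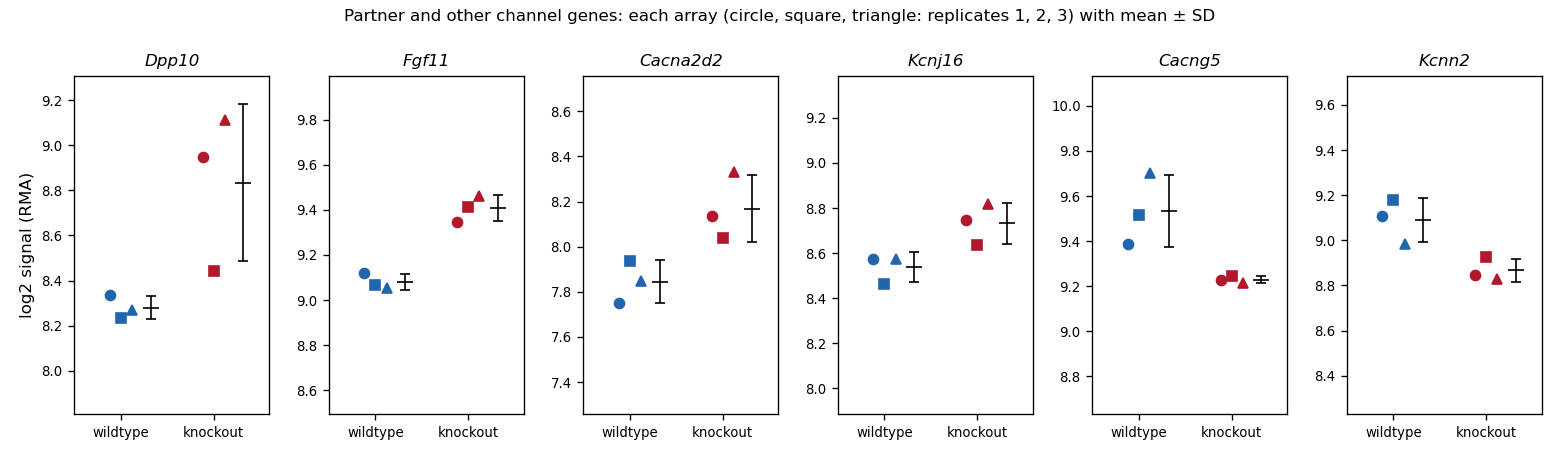
Log2 signal of each of the 6 arrays for the 6 partner and other channel genes with an unadjusted limma p under 0.05, with mean ± SD of 3 arrays. Dpp10, Fgf11, Cacna2d2 and Kcnj16 lie above the wildtype in every knockout array, and Cacng5 and Kcnn2 below it.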

How the data were processed

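Hippocampal RNA of 3 quadruple knockout and 3 wildtype mice was measured on 6 arrays, grouped by the genotype in their labels. The authors used Affymetrix Expression Console for RMA normalization, and the deposited values are log2 signals. The Transcriptome Analysis Console is named as well in the submitters' processing notes. Software versions and the genome build of the array annotation were not given in the sources used here. Precision is limited by the number of arrays.

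Of 34472 probe sets, 23521 carry 1 symbol in the platform annotation, and these cover 22180 genes. All 60 members were matched to the RefSeq gene table of GRCm38.p6, used for gene order. Knockout and wildtype arrays were set against each other in R 4.3.3 with limma 3.58.1 (lmFit, eBayes, two-sided, no block, Benjamini-Hochberg over all probe sets), tested on simulated data. The background level was taken from olfactory receptor probe sets, whose genes are little used in brain, as the 95th percentile of their mean signals. Figures were drawn with matplotlib 3.10.9.

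The members and lists were chosen with earlier results of these data known, so lists are described by counts and medians without a list test. The genes named are the members and partner genes with an unadjusted p under 0.05 and groups that do not overlap, the gene with the highest mean signal in each family (a selection across different probes, not a comparison of levels), channel genes known from hippocampal neurons (16 of 20 were measured and the other 4 were not analysed here), and the targeted genes. Oligodendrocyte markers (8 measured, 0 with an unadjusted p under 0.05) summed to 8916 to 11270 in the knockout and 9246 to 11603 in the wildtype, and choroid plexus markers (6 measured, 0) to 916 to 1227 and 1169 to 1366. Skeletal muscle and heart markers (8 measured) also had 0.

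The settings varied were array weights, a replicate block, robust variances with an intensity trend, median centring, quantile normalization, dim probe sets left out, averaging a gene's probe sets, the ordinary test on each probe set, updated symbols and each array left out in turn. The counts of partner genes under these settings were added after the data were seen.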

Additional observations from a re-analysis of the deposited data

How the results depend on the processing

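The count of channel genes higher at an unadjusted p under 0.05 was 5 in the reported setting, 3 with a replicate block, 3 after quantile normalization and 2 to 9 with single arrays left out, and between 4 and 7 under the other settings. The replicate numbers in the labels are shared between the genotypes, but deviations of same-numbered arrays correlated at 0.004, -0.123 and -0.031, so they were not treated as pairs. The study calls the samples dependent, and how they are related is not given in the labels. The count of lower genes was 1, and 2 with the ordinary test. No gene passed the adjusted threshold in the reported setting, and 1 (Scn7a) did with the intensity trend, 1 with array weights, 1 after median centring and 1 without dim probe sets, with 0 for every array left out. Its adjusted p was 0.228 with the replicate block. Channel genes with all knockout arrays above the wildtype numbered 8, 5 after quantile normalization, 13 after median centring and 9 to 19 with single arrays left out, and those below numbered 2, 1 after quantile normalization, 1 after median centring and 2 to 6. With an array left out these counts can only stay or rise, and the shares over all genes under these settings are not given. The median difference of 0.05 ranged from 0.03 to 0.10. Partner genes higher numbered 4, and 7 after median centring, and those lower 2, 1 after median centring, 4 with the ordinary test and 1 to 3 with single arrays left out. Median centring moved the median of all probe sets from -0.01 to 0.05. The differences of 7 named genes near 0 changed sign: Cacna1a read -9.45e-05 with array weights, -0.0226 after quantile normalization and -0.0163 to 0.0407 with single arrays left out, Kcna4 -0.0306 after quantile normalization and -0.0490 to 0.142, and Kcna2 -0.0241 to 0.157. After median centring Hcn2 read 0.0108, Kcnc4 0.00989, Kcnd2 0.0370 and Kcnv1 0.0377, and with single arrays left out they ran from -0.103 to 0.0394, -0.138 to 0.0795, -0.0433 to 0.0317 and -0.0634 to 0.0559. Of 448 combinations of 32 named genes and 14 alternatives, 424 kept direction and side of the adjusted threshold, which no named channel or partner gene passed in the reported setting, and 38 crossed the unadjusted p of 0.05. Where a setting moved a value, the cause was not tested. Low signals such as Scn7a and Kcna5 lie near the background level.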
